A study of Homo sapiens with 3 samples.

Results

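The genes described here are the zinc finger genes of human chromosome 19 whose symbol is ZNF followed by a number, with or without 1 letter, taken from the array annotation and placed by the reference gene table. They are 188 genes read by 200 probes, out of 16211 named genes, and 187 of them are protein-coding; the exception is ZNF781, a transcribed pseudogene in that table. The RNA came from 3 lines of human embryonic stem (ES) cells kept undifferentiated, H9, BG03 and ES01, with 1 Illumina array per line and no treatment or genotype difference named in the labels. All 3 lines were grown on irradiated mouse embryonic fibroblasts in medium with serum replacement and FGF2, and total RNA was labelled with Cy3. The lines form 1 group (n = 3), so the differences below are between single arrays of single lines and carry no test between lines; how far culture, array and line each contribute cannot be told apart. Intensities are quantile-normalized, in units of the deposited table, and are given in the order H9, BG03, ES01. A gene is called above background on an array when it exceeds 11.2, 12.6 and 13.3 units, the 95th percentile of the probes for olfactory receptors there. An SD is that of the 3 log2 values.

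Most chromosome 19 zinc finger genes encode proteins with a row of C2H2 fingers, each finger contacting a few bases of DNA, and many carry a KRAB domain at their start. KRAB recruits TRIM28, which brings the histone methyltransferase SETDB1 and heterochromatin proteins to the bound site. In pluripotent cells this system is known for silencing retrotransposons. The genes lie in clusters that grew by repeated local duplication, so neighbours are often close relatives, and 1 probe may read more than 1 of them; probe sequences were not used here.

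The promoters of 5 genes are shown as examples of the patterns described below: ZNF577, ZNF420 and ZNF585A were low in BG03, ZNF558 was not above background in ES01, and ZNF560 was above background in ES01 alone. Each is the RefSeq sequence of GRCh38.p14 from 250 bases before to 50 bases after the gene's start, 5′ to 3′ on the gene's strand, with CpG dinucleotides in capitals.
ZNF577, chr19:51887902-51888201, minus strand: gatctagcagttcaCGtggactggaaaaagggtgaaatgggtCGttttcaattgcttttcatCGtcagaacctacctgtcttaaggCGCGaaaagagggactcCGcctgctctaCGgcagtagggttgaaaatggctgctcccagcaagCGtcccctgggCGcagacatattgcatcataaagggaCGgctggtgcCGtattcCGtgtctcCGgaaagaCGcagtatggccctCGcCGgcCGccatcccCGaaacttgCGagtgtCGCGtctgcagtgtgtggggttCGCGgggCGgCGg
ZNF420, chr19:37078183-37078482, plus strand: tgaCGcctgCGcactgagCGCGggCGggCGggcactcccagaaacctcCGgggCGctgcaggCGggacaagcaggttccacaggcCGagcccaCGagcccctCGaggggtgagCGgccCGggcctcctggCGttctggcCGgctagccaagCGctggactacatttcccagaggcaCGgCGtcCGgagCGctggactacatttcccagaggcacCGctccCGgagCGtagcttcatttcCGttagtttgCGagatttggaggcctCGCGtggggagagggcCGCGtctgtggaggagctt
ZNF585A, chr19:37172646-37172945, minus strand: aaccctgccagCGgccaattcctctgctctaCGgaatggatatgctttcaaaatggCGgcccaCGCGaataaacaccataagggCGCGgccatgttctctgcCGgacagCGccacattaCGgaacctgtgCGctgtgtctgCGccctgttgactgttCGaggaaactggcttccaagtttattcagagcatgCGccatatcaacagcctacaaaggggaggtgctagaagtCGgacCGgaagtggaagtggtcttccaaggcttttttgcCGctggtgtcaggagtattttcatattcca
ZNF558, chr19:8832255-8832554, minus strand: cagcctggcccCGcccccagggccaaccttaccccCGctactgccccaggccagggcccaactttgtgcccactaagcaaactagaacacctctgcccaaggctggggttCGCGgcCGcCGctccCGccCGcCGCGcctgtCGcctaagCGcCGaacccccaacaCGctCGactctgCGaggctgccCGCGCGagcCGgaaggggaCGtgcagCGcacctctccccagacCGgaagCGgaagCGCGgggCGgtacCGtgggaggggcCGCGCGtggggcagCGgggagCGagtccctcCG
ZNF560, chr19:9498567-9498866, minus strand: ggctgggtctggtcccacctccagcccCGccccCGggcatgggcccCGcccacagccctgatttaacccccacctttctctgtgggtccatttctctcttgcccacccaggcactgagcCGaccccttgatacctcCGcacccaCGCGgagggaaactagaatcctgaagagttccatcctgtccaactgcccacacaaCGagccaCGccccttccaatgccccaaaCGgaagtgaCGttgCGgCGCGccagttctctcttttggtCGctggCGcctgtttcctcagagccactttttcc
These promoters hold 25, 30, 17, 34 and 16 CpG dinucleotides in the order shown. The GC-box core GGGCGG was found on either strand in all of them except ZNF585A, and the ETS-type motif CCGGAAG in ZNF585A and ZNF558.

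About as many of these genes were above background as of genes in general. Of the 188, 116 were above background in all 3 lines, 17 in 2 lines, 14 in 1 line and 41 in none; 116 of 188 is 61.7%, against 59.8% of all named genes. The share was 66.2% for the 216 ZNF genes on other chromosomes and 57.6% for the 975 other chromosome 19 genes. By line, 136, 125 and 135 were above background. Differences between lines were taken over the 147 genes that any line had above background. Their median intensity, 84.7 units, was lower than the 166 units of all 10998 genes so used, and their median SD was 0.24 against 0.19.

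BG03 stood apart for this gene group. Of the 147 genes, 14 differed at least 2-fold between BG03 and H9, where 3.25% of all genes did: 12 were at least 2-fold lower in BG03 than in H9, where 1.5% of all genes were, and 2 were at least 2-fold higher, where 1.75% of all genes were. Between ES01 and BG03 24 members differed, where 3.75% of all genes did. BG03 was at least 2-fold lower for 21 of 147, where 2.26% of all genes were, and at least 2-fold higher for 3, where 1.48% were. Between ES01 and H9, 9 members differed, where 5.13% of all genes did; 6 genes were at least 2-fold higher in ES01 and 3 lower, where 2.89% and 2.24% of all genes were. Both comparisons with BG03 rest on its 1 array, and each line serves in 2 of the 3 comparisons, so they are not independent. The median log2 difference of the members was -0.07 for BG03 minus H9, 0.08 for ES01 minus H9 and 0.12 for ES01 minus BG03, and that of all genes was 0.03, 0.01 and -0.01. With arrays scaled to the same median, the 2 medians with ES01 turned to -0.22 and -0.17, where those of all genes were -0.27 and -0.34. The split of 2-fold differences between ES01 and BG03 was then 11 higher and 4 lower in ES01, in place of 21 and 3, where 1% of all genes were higher and 4.5% lower. Between ES01 and H9 it was 4 higher and 8 lower, in place of 6 and 3, where 1.52% of all genes were higher and 5.68% lower.

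**Figure D1:**
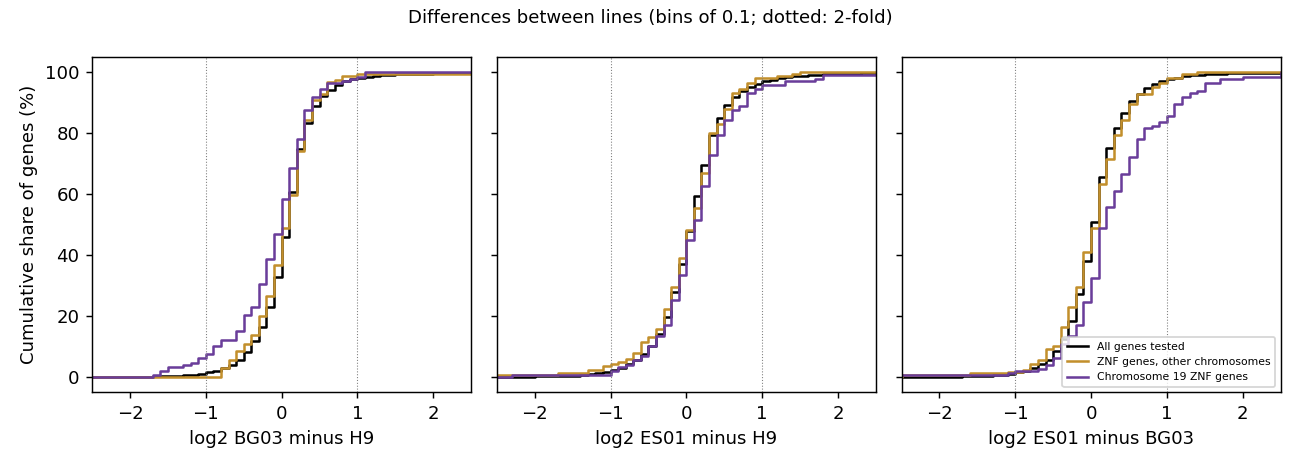
Cumulative share of genes (%) against the log2 difference between 2 lines, in bins of 0.1, for the 147 chromosome 19 ZNF genes, 166 ZNF genes on other chromosomes and 10998 genes in all; dotted lines mark 2-fold. The curve of the chromosome 19 genes lies to the left of the others over the negative range for BG03 minus H9 and to the right over the positive range for ES01 minus BG03, with medians of -0.07 and 0.12, and the curves meet or cross in the opposite tails.

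A gene can also be asked to differ in 1 line from both others; this count was chosen after the values had been seen. At least 2-fold lower in BG03 than in both other lines were 9 of 147 members (6.12%), against 0.446% of all genes. Of these 9, ZNF566, ZNF585A, ZNF585B and ZNF528 were not above background in BG03 and entered through the lines where they are high. The count was 5 of 116 among genes above background in all 3 lines (0.33% of all such genes), 4 of 123 with the 99th percentile as background (0.271%) and 3 with a floor of 50 units (0.145%). None of the 166 ZNF genes on other chromosomes and 1 of 638 other chromosome 19 genes met the same rule. By the same 2-fold rule, 0 members were lower in H9 (0.891% of all genes) and 2 in ES01 (0.6%), while 1 was higher in H9 (0.455%), 1 in BG03 (0.4%) and 5 in ES01 (1.05%). At 1.5-fold, 18 members (12.2%) were lower in BG03, against 2.06% of all genes, 2 of the ZNF genes on other chromosomes and 14 of the other chromosome 19 genes. The matching counts for H9 and ES01 were 3 and 4, against 2.87% and 2.94% of all genes. Of the 18, ZNF442, ZNF566, ZNF585A, ZNF585B, ZNF233, ZNF285, ZNF528 and ZNF582 were not above background in BG03. They entered through the lines where they are high, so their folds are bounds. In the other direction, 10 members were at least 1.5-fold higher in ES01 than in both others, against 3.46% of all genes, 3 in H9 against 2.66% and 1 in BG03 against 1.65%. BG03 held the lowest value of the 3 lines for 64 of the 147 members (43.5%), and for 27.2% of all genes. This count uses values set to each array's threshold where a gene was not above background. The thresholds differ between arrays (11.2, 12.6 and 13.3 units), so for such genes they help decide which line is lowest. The same holds for the counts by run below. Other chromosome 19 genes showed no such shift: their median was 0.01 for BG03 minus H9 and -0.02 for ES01 minus BG03.

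**Figure D2:**
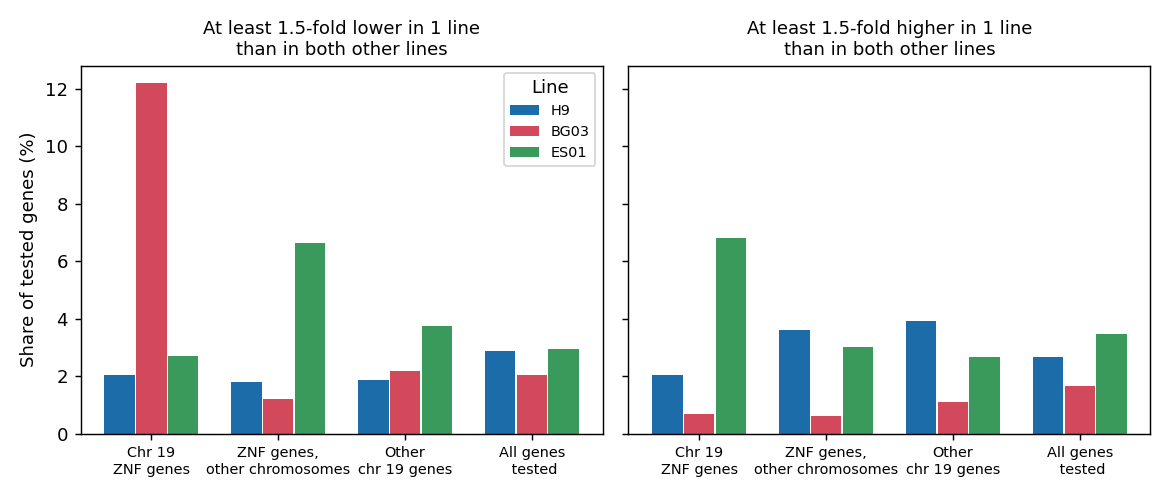
Share of tested genes (%) at least 1.5-fold lower (left) or higher (right) in 1 line than in both other lines, for 4 gene groups, with 1 bar per line. The tallest bar on the left is BG03 for the chromosome 19 ZNF genes, 12.2%, against 2.06% of all genes tested. Some genes in that bar were not above background in BG03 and entered through the other lines.

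The test that the design allows asks whether a gene varied more over the lines than genes of like intensity. In this variance test, an F-test against the prior variance fitted by limma, 0 of the 147 members and 0 of all 10998 genes passed an adjusted p of 0.05 (0% of all genes). At an unadjusted p under 0.05 there were 16 members, and 4.7% of all genes. None of the single-gene differences given here therefore passed a test, and they are given by size.

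Several of the genes low in BG03 are neighbours. In the run of 22 measured genes from ZNF565 to ZNF573, BG03 was lowest for 12 of the 17 tested genes. It was lowest for 43.5% of all tested members and 27.2% of all genes. The median log2 difference of the run was -0.49 for BG03 minus H9 and 0.35 for ES01 minus BG03. ZNF420, a KRAB zinc finger gene known as the p53 regulator APAK, measured 36.6, 12.6 and 40.2 units, 2.90-fold lower in BG03 than in H9 and 3.18-fold lower than in ES01. Its BG03 value lay at the background threshold (12.63 against 12.58). With the 99th percentile as background the log2 difference between its highest and lowest line was 0.39 in place of 1.67, and that of ZNF585A 0.23 in place of 1.52. ZNF585A, the next measured gene, was at 36.0, 6.67 and 30.1 units, and its neighbour and close relative ZNF585B was at 27.9, 7.60 and 25.2. Both were above background in H9 and ES01 and not in BG03, so the folds against H9 are bounds, at least 2.86-fold and at least 2.22-fold; whether both probes read the same transcript was not tested. ZNF383, which follows them with no other coding gene between, measured 30.4, 19.4 and 34.3 units and was lowest in BG03 too. ZNF566, nearer the start of the run, was at 27.4, 10.7 and 30.9, at least 2.17-fold lower in BG03 than in H9. Others of the run were level: ZNF790 had 128, 124 and 124 units (SD 0.03), ZNF573 285, 270.1 and 299, and ZNF570 27.4, 26.0 and 26.2. ZNF875 went another way, with 262, 261 and 125 units, 2.10-fold lower in ES01 than in H9.

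The run from ZNF175 to ZNF331 holds 26 measured genes, of which 23 were tested and 13 were lowest in BG03. The share lowest in BG03 was 43.5% over all tested members, with this run among them, and 27.2% over all genes. The median of the run was -0.33 for BG03 minus H9 and 0.41 for ES01 minus BG03. ZNF577 measured 190 units in H9, 58.6 in BG03 and 327 in ES01 (SD 1.27), 3.24-fold lower in BG03 than in H9 and 5.59-fold lower than in ES01. ZNF350, a KRAB repressor that binds the BRCA1 protein and is also called ZBRK1, measured 174, 82.2 and 186 units, 2.12-fold and 2.27-fold lower in BG03. ZNF613, between these 2 genes, was at 456, 260 and 523, 2.01-fold lower in BG03 than in ES01. ZNF528 was at 30.2 and 49.6 units in H9 and ES01 and not above background in BG03 (11.6 units), at least 2.40-fold and at least 3.94-fold lower. The neighbours ZNF615 (162, 115 and 158), ZNF614 (87.7, 60.6 and 114), ZNF432 (255, 174 and 242) and ZNF616 (262, 205 and 318) were lowest in BG03 too, by less than 2-fold. ZNF616 has a second probe above background in every line, which read 135, 84.2 and 115 units. ZNF649, a gene known for binding L1 elements, lies among them and had its lowest value in ES01 (347, 275 and 200.5). ZNF701 (19, 22.1 and 59.9) and ZNF600 (51.6, 90.1 and 120) were highest in ES01, 3.15-fold and 2.33-fold above H9; the second ZNF600 probe read 64.1, 68.4 and 115.

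**Figure D3:**
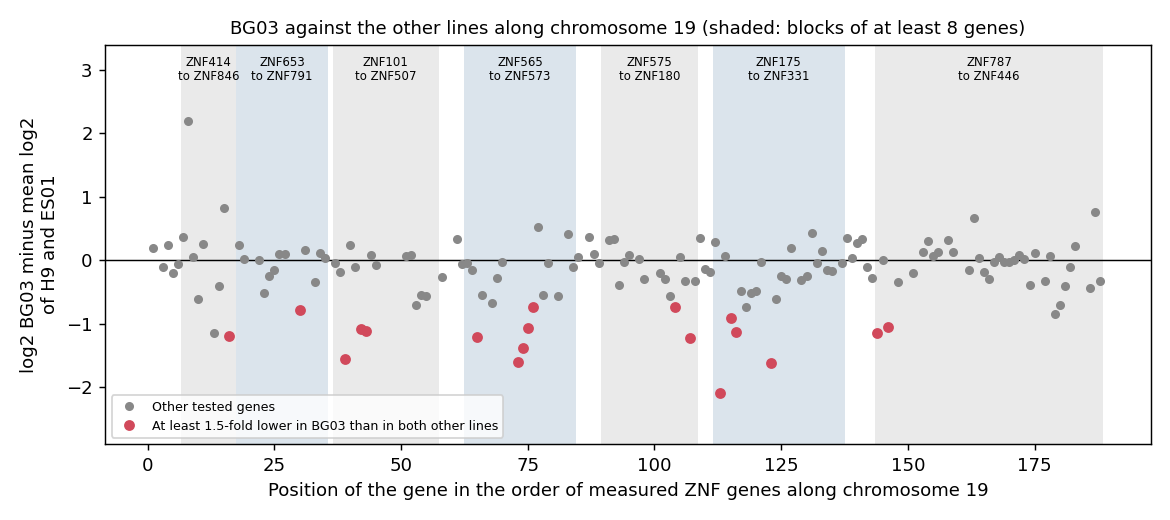
Log2 value in BG03 minus the mean log2 value of H9 and ES01 for the 147 tested genes, by their place in the order of measured ZNF genes along chromosome 19; shading marks runs of at least 8 genes and red points the 18 genes at least 1.5-fold lower in BG03 than in both other lines. Red points lie in all 7 shaded runs, with 5 in the run from ZNF565 to ZNF573 and 4 in that from ZNF175 to ZNF331. Some red points are genes not above background in BG03, whose BG03 value was set to the threshold.

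The run of 21 genes from ZNF101 to ZNF507 holds 3 more of the 18. ZNF253 measured 116, 37.5 and 105 units, 3.11-fold lower in BG03 than in H9; ZNF626 was at 95.6, 46.3 and 101 and ZNF85 at 41.8, 22.2 and 55.2. This run also holds ZNF91, a repressor of SVA retrotransposons, whose probe read 16737, 18937 and 19195 units (SD 0.11), and ZNF492 at 3860, 4020 and 3788 (SD 0.04). ZNF93, a repressor of L1 elements, was above background in every line at 44.5, 45.2 and 32.8 units. ZNF208 and ZNF257 were not above background in any line. ZNF675, an inhibitor of TRAF6 signalling, was at 32.1, 25.5 and 54.2, 2.12-fold higher in ES01 than in BG03, and ZNF681 was above background in H9 alone (25.2 units).

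Of the 19 measured genes from ZNF575 to ZNF180, 15 were tested and 9 were lowest in BG03, where 43.5% of all tested members and 27.2% of all genes were. ZNF285 read 43.1 units in H9, 20.1 in ES01 and was not above background in BG03, at least 3.43-fold lower than in H9. ZNF233, above background in H9 and ES01 only, was at 18.9, 3.13 and 23.1 units. ZNF226 has 3 probes above background in every line, all lowest in BG03: 385, 294 and 335 at the first, 73.4, 54.0 and 70.2 at the second and 41.4, 21.9 and 49.8 at the third. ZNF224, a KRAB repressor, was not above background at either of its 2 probes. In the 45 genes from ZNF787 to ZNF446 the median was 0.00 for BG03 minus H9 and 0.14 for ES01 minus H9. BG03 was lowest in 10 of the 35 tested genes, near its share over all genes (27.2%). At least 2-fold between any 2 lines differed 6 of the 35, where 19.7% of all tested members and 8.27% of all genes did. ZNF787 was at 341, 130 and 244 units, 2.62-fold lower in BG03 than in H9, and ZNF582 was above background only in H9 (24.1) and ES01 (28). ZNF773 was lowest in H9 (12, 25.3 and 21.5). The remaining 2 of the 18 were ZNF562 (123, 63.4 and 173) and ZNF442 (19.8, 12.3 and 23.5).

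The run of 11 genes from ZNF414 to ZNF846 showed larger differences, mostly in ES01. ZNF558 measured 68.3 units in H9 and 137 in BG03 and was not above background in ES01, at least 5.15-fold and at least 10.3-fold lower there. ZNF560 was the reverse: it was not above background in H9 or BG03 and read 68.7 units in ES01, at least 6.13-fold higher than in H9. ZNF559 measured 168, 201 and 564 units, 3.36-fold higher in ES01 than in H9. ZNF561 was lowest in ES01 (47.3, 67.0 and 30.4) and its neighbour ZNF562 highest there, so adjacent genes did not share 1 order of lines. All of them have a single probe. Elsewhere, ZNF135 was 3.28-fold higher in ES01 than in H9 (19, 19.2 and 62.2 units), ZNF329 was 2.13-fold higher than in BG03 (87.3, 69.5 and 148), ZNF132 was above background in ES01 alone (25.9 units), and ZNF439 was above background in H9 (13.0 units) and ES01 (25.2 units) but not in BG03.

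**Figure D4:**
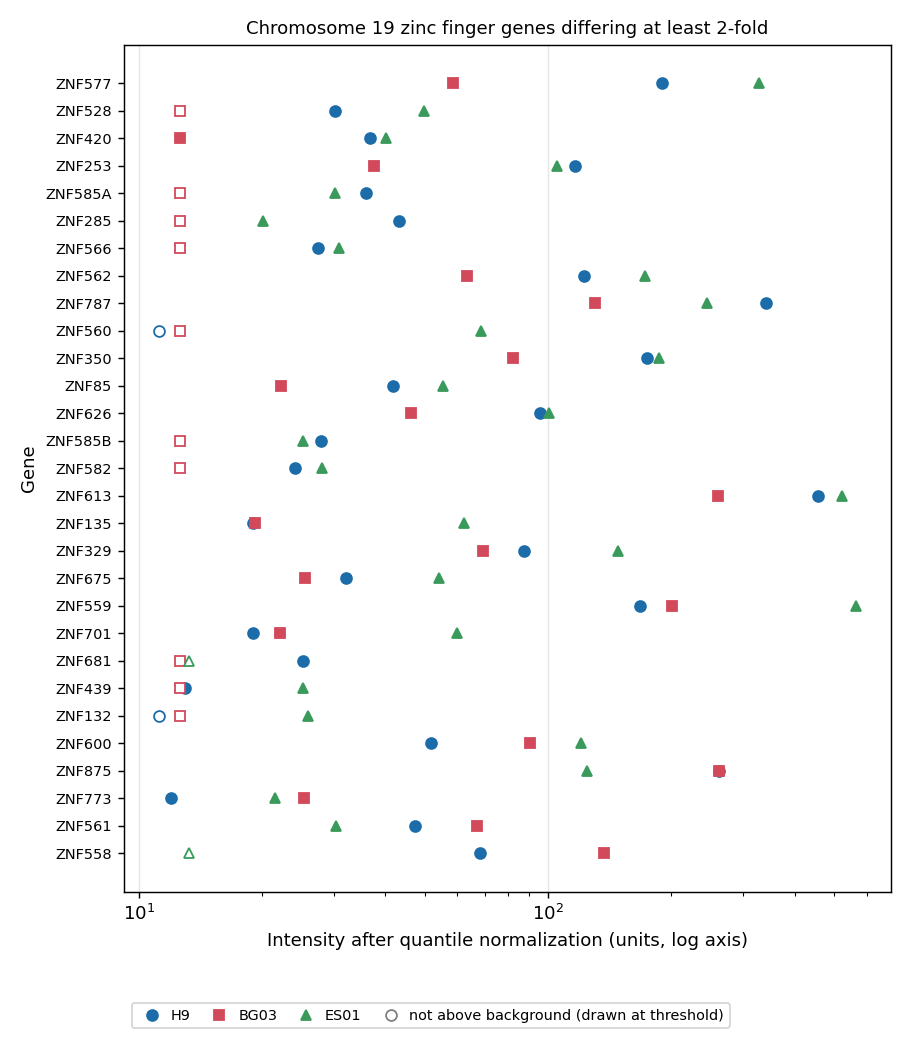
Intensity after quantile normalization (units, log axis) in each line for the 29 chromosome 19 ZNF genes that differed at least 2-fold between any 2 lines, 1 point per array; open symbols are not above background and are drawn at the array's threshold. BG03 (red squares) is lowest in the upper rows, such as ZNF577 with 58.6 units against 190 and 327.

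At least 2-fold differences between any 2 lines were found for these 29 of 147 genes, 19.7%, against 8.27% of all genes. The others were closer. The 6 genes with the smallest spread among those above background in every line were ZNF776 (64.9, 64.1 and 63.7 units, SD 0.01), ZNF134, ZNF790, ZNF101, ZNF526 and ZNF792, with SDs up to 0.04. Of the 12 genes whose probes stood farthest above background, none differed 2-fold, where 8.27% of all genes did, so 12 genes are too few to set them apart. Besides ZNF91 and ZNF492 these were ZNF417 (2958, 3138 and 2865 units), ZNF14 (1888, 1808 and 2229), ZNF544 (1254, 1339 and 1637), ZNF444 (910, 836 and 754), ZNF581, ZNF358, ZNF579, ZNF549, ZNF114 and ZNF665, with SDs of 0.04 to 0.23. A bright probe does not show an abundant transcript, since probes differ in response. Among bead types of a bead mean under 100 units, the median standard error over beads was 2.19 to 2.27 units; this covers error within an array only, says nothing of the spread between arrays, and could not be set beside single genes, since bead codes are not linked to genes.

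The 6 other measured members of the list with known roles were above background in every line. ZNF274, which binds the 3′ ends of zinc finger genes and recruits SETDB1, measured 338, 246 and 315 units (SD 0.24); its second probe read 16.1, 12.1 and 23.9, with BG03 not above background. ZNF296, a factor of pluripotent cells, was at 340.4, 407 and 300 (SD 0.22), and the imprinted gene ZNF331 at 495, 405 and 348 (SD 0.26). ZNF304, which recruits TRIM28 complexes to its targets, was at 32.3, 39.6 and 40.6, ZNF473, a factor of histone mRNA processing, at 62.2, 46.0 and 43.9, and ZNF146, a finger protein without KRAB, at 172, 176 and 224.

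Genes through which KRAB proteins act were mostly above background, with small differences between lines. Of 46 measured co-repressor and heterochromatin genes of a fixed list of 50, 43 were above background in all 3 lines (59.8% of all named genes were), 1 in 2 lines, EHMT1, and 2 in none, ZFP57 and TASOR. Their median log2 difference was 0.01, 0.01 and -0.01 for BG03 minus H9, ES01 minus H9 and ES01 minus BG03. TRIM28 read 936, 967 and 1115 units (SD 0.13), SETDB1 130.5, 147 and 126 (SD 0.12), and ATF7IP, the partner of SETDB1, 349, 330 and 371. The heterochromatin proteins CBX1 (975, 890 and 834), CBX3 (2462, 3011 and 2978) and CBX5 (292, 319 and 258) and the remodellers CHD4 (205, 196 and 186) and CHD5 (29.9, 26.1 and 26.8) differed by less than 2-fold. KDM4C, a demethylase of heterochromatin marks, was the single 2-fold difference of the list, with 31.8, 19.5 and 14.5 units. That is 1 of 44 tested genes, where 8.27% of all genes differed at least 2-fold between any 2 lines.

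Transcripts derived from retroelements or linked to them were also listed. Of 22, 11 were measured and 8 were above background in every line, where 59.8% of all named genes were. ERVMER34-1, an endogenous retroviral envelope gene, was the 1 gene with a 2-fold difference, at 31.6, 303 and 378 units, lowest in H9. That is 1 of 9 tested genes, where 8.27% of all genes differed at least 2-fold, so the count is too small to set apart. L1TD1, a gene domesticated from an L1 element, measured 7436, 8145 and 11006 units, PEG10 254, 282 and 341, LDOC1 302, 246 and 328, ABHD12B 111, 193 and 196, SCGB3A2 1103, 1451 and 1256. ERVW-1 was above background in H9 alone (12.1 units) and ERVV-1 in none. None of the 9 tested genes of this list was at least 2-fold lower in BG03 than in both other lines. Over all genes that share was 0.446%, so so few genes cannot be told apart from it.

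The ES cell label was checked with fixed markers: 11 of 11 measured, among them POU5F1, NANOG and LIN28A, were above background in every line. Over all named genes that share was 59.8%, which also stands beside the marker counts below. Of the 11, 1 differed at least 2-fold between lines, ZFP42 (364, 780 and 247 units), where 8.27% of all genes did. Fibroblast markers were above background in every line for 6 of 12, with summed intensities of 2910, 2931 and 3081 units; COL3A1, COL6A3 and POSTN were above background in none. Of the 9 fibroblast markers tested, 5 differed at least 2-fold between lines, where 8.27% of all genes did. At least 2-fold lower in BG03 than in both others was 1 of them, where 0.446% of all genes were. Neural markers (2 of 7 in every line) summed to 1393, 1364 and 1667 units and endoderm markers (5 of 5) to 707, 791 and 739. BG03 held the middle fibroblast sum, the lowest neural sum and the highest endoderm sum. The neural sum is mostly TUBB3 (1348, 1269 and 1575 units). DCX was highest in BG03 (34.4, 76.3 and 55.4), and PAX6 was lowest in H9, where it was not above background (3.8, 14.8 and 24.2). The fibroblast sum is mostly FBLN1 (1694, 1641 and 1447 units) and THY1 (752, 851 and 824), while LUM was above background in BG03 alone (48.9 units) and DCN in H9 and ES01 alone. Of the tested markers, 2 of 3 neural and 3 of 5 endoderm genes differed at least 2-fold, against 8.27% of all genes. The 3 endoderm genes were TTR (81.5, 12.8 and 21.0 units), AFP (148, 322 and 383) and APOA1 (309, 287 and 147). They were lowest in BG03, H9 and ES01, in that order. The shares of fibroblast, neural and endoderm markers differing 2-fold were above the 19.7% of the zinc finger genes. Those shares rest on only 9, 3 and 5 tested markers, which did not share 1 order of lines. The part of other cell types in the zinc finger differences was not tested.

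Promoters were described by features that the choice of genes did not use. A promoter of 300 bases was found for 166 of the 188 genes. CCGGAAG stood, on either strand, in 72 of them (43.4%), in 37.1% of promoters of ZNF genes on other chromosomes, in 14.9% of promoters of all genes on the array and in 10.7% of all 27305 promoters in the table. TGCGCA, a motif core of NRF1, stood in 20.5% against 11.2% of genes on the array and 8.42% of all promoters, and in 15.2% of those of ZNF genes on other chromosomes. The TATA box TATAAA stood in 1.2% against 9.05% and 12%, and in 3.37% for ZNF genes elsewhere. GGGCGG (65.7% against 60.7% and 44.6%), the YY1-type ATGGCGG (10.8% against 8.09% and 5.72%) and ACTACAA (5.42% against 3.32% and 2.95%) were the other 3 motifs searched, with 60.1%, 8.43% and 7.3% for ZNF genes elsewhere; none of the 6 holds another, but matches may share letters. The median CpG count was 20.5 per promoter, 23.0 for genes on the array and 14.0 for all promoters. Within the group it was 21.5 for genes above background in all 3 lines, 20 for those in 1 or 2 lines and 19 for those in none. The 16 promoters of genes at least 1.5-fold lower in BG03 had a median of 18.5. Their median GC content was also lower, 57.2% against 60.2% for all members. Set against the CpG count expected from C and G content, their median ratio was 0.84, against 0.78 for all members. A match describes letters in this window and is not a binding site.

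**Figure D5:**
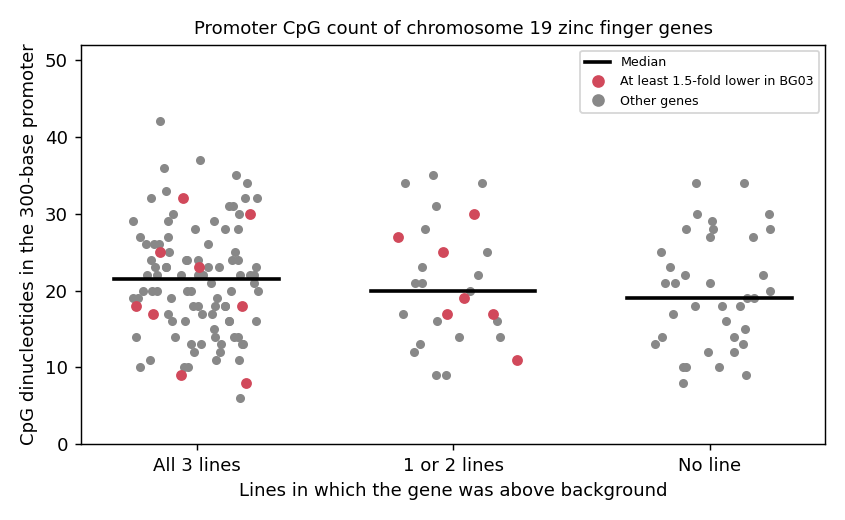
CpG dinucleotides in the 300-base promoter of each of 166 genes, by the number of lines in which the gene was above background; black lines are medians (21.5, 20 and 19) and red points the genes at least 1.5-fold lower in BG03 than in both other lines. The 3 groups overlap widely, and the red points are spread through the first 2. Red points in the second group are genes not above background in BG03.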

How the data were processed

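Total RNA of 3 human ES cell lines was hybridised to Illumina whole-genome arrays, per the labels' protocols. The deposited values are 1 intensity per probe on a linear scale with background subtracted (26.3% to 33.8% of values are below 0); the authors' software, and any scaling, were not stated in the labels. Probes were named by the platform annotation and placed by gene ID in the gene table of GRCh38.p14, where 18451 of 18468 matched. Quantile normalization of all 47293 probes except 4 bacterial controls used limma 3.58.1 in R 4.3.3 (with data.table version 1.17.8); a gene with several probes was read by that of highest mean. Values under an array's background threshold were set to it before log2. Genes above background in at least 1 line were used for differences. Each gene's variance between lines was set against that of genes of like intensity. The F-test took the gene's own variance over the prior variance that limma fits along intensity, with Benjamini-Hochberg over all genes. Bead files, deposited as 1 intensity per bead, were used for bead error only. A run is a stretch of measured members with at most 10 other coding genes between neighbours; protein sequences were not used here. Named genes were members differing at least 2-fold, the 12 farthest above background, the 6 of smallest SD, a fixed list with known roles, and of the co-repressor and retroelement lists the first 8 measured and those differing 2-fold; neighbours named beside them were chosen after their values were seen. The members and lists were chosen with earlier results of these data known. Steps were tested on simulated data. Precision is limited by there being 1 array per line. Python 3.11.15, numpy 2.4.6, pandas 2.3.3 and matplotlib 3.10.9 were used for beads, promoters and figures.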

Additional observations from a re-analysis of the deposited data

How the results depend on the processing

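With 1 array per line and probes near background, counts past 2-fold depend on the floor. The count of members lower in BG03 than in H9, 12, was 5 with the 99th percentile background, 4 with a floor of 50 units and 6 among genes above background in all lines, where 0.823%, 0.491% and 1.17% of all genes were; these settings tested 123, 147 and 116 members. The count lower than in ES01, 21, was 10, 8 and 13 (1.53%, 0.918% and 1.75% of all genes), and that lower than both, 9, was 4, 3 and 5. Over all genes that last share was then 0.271%, 0.145% and 0.33%. Scaling arrays to the same median gave 11 in place of 21 and 6 in place of 9, made 8 members lower in ES01 than in H9 in place of 3, and turned the medians to -0.22 (ES01 minus H9) and -0.17 (ES01 minus BG03). Members higher in BG03 than in H9 numbered 1 with the 99th percentile, with 1 floor for all arrays, with the 50-unit floor and among members with no line at background. With the 50-unit floor, 2 members were higher and 1 lower in ES01 than in H9, and 1 was lower among genes above background in all lines. Without the filter on dim genes the BG03 minus H9 median was 0.05, where that of all genes was 0.17; genes in no line then stand at floors that differ between arrays. At 1.5-fold, members were 23 lower and 5 higher in BG03 than H9, 19 higher and 11 lower in ES01 than H9, and 32 higher and 6 lower in ES01 than BG03; at 3-fold, 3 and 0, 4 and 1, and 5 and 1. The variance test called 2 members (ZNF558 and ZNF560) with same-median scaling, where it called 0.8% of all genes, and 11 without the filter, where it called 2.5%; with the other alternatives it called 0. Under the 99th percentile background the difference between the lines that were highest and lowest turned for ZNF439 and ZNF681 (-0.29), ZNF585B (-0.14) and ZNF582 (-0.13), whose highest values lie under the BG03 floor of that setting. Of the 29 members that differed 2-fold, 16 did so under that background, 12 with the 50-unit floor and 20 with same-median scaling; under that background the log2 difference was 0.39 for ZNF420, 0.23 for ZNF585A, 0.01 for ZNF566, 0.49 for ZNF285, 0.69 for ZNF528, 0.29 for ZNF773 and 0.04 for ZNF132. Leaving out 1 line gave 119 to 126 members above background in the remaining lines, and the 2-fold counts of the pair that remained were 12 and 2, 6 and 3, and 21 and 3, with medians of -0.09, 0.07 and 0.13 and 0 variance calls. Counting each probe gave 9 of 154 probes tested. The count lower in BG03 than in both others, with its alternatives, was chosen after seeing the data. The planned protein features were not run. No paired analysis was possible because the lines form 1 group.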

Other observations

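Of the 166 tested ZNF genes on other chromosomes, 13 differed at least 2-fold between any 2 lines (7.83%, against 8.27% of all genes). Between ES01 and H9, 7 were lower in ES01 and 3 higher, where 2.24% and 2.89% of all genes were, whereas between BG03 and H9 the count was 1, ZNF248, which was not above background in H9 and read 66.4 units in BG03. ZNF680 measured 125 and 77.1 units in H9 and BG03 and was not above background in ES01. ZNF695 (99.6, 68.7 and 30.4), ZNF34 (147, 96.8 and 57.6) and ZNF518B (210, 149 and 82.5) were lowest in ES01, while ZNF124 (43.8, 48.4 and 123) and ZNF268 (188, 274.5 and 493) were highest there. At least 1.5-fold lower in ES01 than in both other lines were 11 of these 166 genes (6.63%), against 2.94% of all genes tested. These genes were named after their values had been seen, and the difference between the 2 groups of zinc finger genes was not tested.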
